A study of Mus musculus with 8 samples.

Results

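The fibrinogen gene cluster of the mouse lies on chromosome 3 and holds, in order, Fgg, Fga and Fgb, which encode the γ, α and β chains of fibrinogen, followed by Plrg1, which encodes a component of the spliceosome. Its members were taken as the 4 genes and the chromatin loops with an anchor in an 80-kb window of mm10, from 82.99 to 83.07 Mb. The members were chosen by their PETs at ZT10, where these genes rank high, and so their levels there are given as a description with no test. They are 4 of 21887 protein-coding genes, and the window held 55 of 57865 loops in the library that lists most of them. Loops were measured in liver by in-situ ChIA-PET, in which crosslinked chromatin is cut, religated in nuclei and pulled down, so that a paired-end tag (PET) joins 2 places that lay close together. The antibody recognised the HA tag on REV-ERBα, a heme-binding repressor of the clock.

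Of the 8 samples, 6 were used. The knock-in mice (REV-ERBa3HA/3HA, no virus) gave 1 library at zeitgeber time (ZT) 10 and 1 at ZT22. Mice with both Rev-erb genes floxed (REV-ERBaf/fREV-ERBbf/f) received AAV8-TBG-Cre and were collected at ZT10. With it came either AAV8-TBG-3HA-REV-ERBa-delhIDR, a form that by its label lacks the hIDR (dhIDR, 2 libraries), or AAV8-TBG-3HA-REV-ERBa-WT, the full-length form (WT, 2 libraries). The TBG promoter is active in hepatocytes, so other liver cells would keep their floxed genes and carry no tagged protein. The labels give no age and do not say whether the 2 libraries of a construct came from separate animals, so the spread between them may be technical. Listed PETs numbered 320427 at ZT10, 132709 at ZT22, 178426 and 160635 in dhIDR, and 104161 and 204018 in WT, and every listed loop had at least 3.

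Fibrinogen is made by hepatocytes as a hexamer with a pair of each chain, secreted into plasma, and cut by thrombin to form the fibrin clot. All 3 chains are needed for secretion, and the 3 genes are transcribed together in liver and rise together in the acute-phase response to interleukin 6. REV-ERBα binds the nuclear receptor half-site AGGTCA preceded by A and T bases, alone or as a pair.

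The promoters are shown because each lay under an anchor of the strongest loops. The sequences are the 250 bases before each gene start, 5′ to 3′ on the gene's own strand, from RefSeq (GRCm38.p6, the assembly of mm10), in which all 4 members matched. Capitals mark motif matches that are described beneath them.
Fgg, chr3:83007474-83007723, plus strand: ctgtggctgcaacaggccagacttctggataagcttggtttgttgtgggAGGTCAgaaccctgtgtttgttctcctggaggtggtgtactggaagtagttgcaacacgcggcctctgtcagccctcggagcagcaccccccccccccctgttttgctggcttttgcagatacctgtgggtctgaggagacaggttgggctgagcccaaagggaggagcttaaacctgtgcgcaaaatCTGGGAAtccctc
Fga, chr3:83025903-83026152, plus strand: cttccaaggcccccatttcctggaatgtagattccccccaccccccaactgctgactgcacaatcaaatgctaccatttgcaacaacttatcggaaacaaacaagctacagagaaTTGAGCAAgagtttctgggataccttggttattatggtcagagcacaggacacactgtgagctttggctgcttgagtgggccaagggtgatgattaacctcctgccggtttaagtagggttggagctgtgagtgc
Fgb, chr3:83049864-83050113, minus strand: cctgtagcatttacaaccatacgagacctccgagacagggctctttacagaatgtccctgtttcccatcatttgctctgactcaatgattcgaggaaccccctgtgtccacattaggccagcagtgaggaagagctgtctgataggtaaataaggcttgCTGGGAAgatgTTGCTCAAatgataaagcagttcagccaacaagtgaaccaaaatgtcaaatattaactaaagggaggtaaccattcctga
Plrg1, chr3:83055288-83055537, plus strand: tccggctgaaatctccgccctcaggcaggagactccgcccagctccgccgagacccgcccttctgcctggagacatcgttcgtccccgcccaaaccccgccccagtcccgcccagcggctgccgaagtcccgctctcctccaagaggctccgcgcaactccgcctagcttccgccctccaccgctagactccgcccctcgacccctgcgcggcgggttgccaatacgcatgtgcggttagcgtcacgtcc

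The motifs were searched on both strands. The half-site AGGTCA occurred once, in the Fgg promoter, starting 201 bases before the gene start, and 14% of 32851 promoters of this length hold it. Its extended form TAGGTCA (2.23% of promoters) and a pair of AGGTCA with 2 bases of any kind between (RevDR2, 0.00913%) matched none of the 4, nor did the E-box CACGTG (6.02%). The interleukin 6 response element CTGGGAA (9.10%) stood 13 bases before Fgg and 91 before Fgb. The C/EBP motif TTGCNNAA (9.56%) stood 135 bases before Fga and 80 before Fgb. No 2 of the matches overlap. The Plrg1 promoter held none of these motifs, and it had 28 CpG dinucleotides and 69.6% G and C, against 4 CpG in Fgg, 2 in Fga, 3 in Fgb and a median of 6 over all promoters. Missing letters in 250 bases say nothing of sites elsewhere in the wide anchors, whose full sequence was not used here.

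At ZT10 the 3 fibrinogen promoter regions were joined to each other by 3 loops, which ranked 1, 3 and 5 of all 57865 loops by PETs. The first joined chr3:83002786-83013723, over the Fgg promoter and most of the gene, to chr3:83018753-83031056, over the Fga promoter, with 374 PETs. The second joined chr3:83018753-83035266, over Fga, to chr3:83045513-83056321, over both the Fgb and Plrg1 promoters, with 299 PETs. The third joined chr3:83002787-83012219, at Fgg, to chr3:83046377-83056065, again over Fgb and Plrg1, with 258 PETs. Every pair of the 3 regions was thus joined. Together these 3 loops held 931 of the 1434 PETs of the window (64.9%). The starts lie 18.4 kb (Fgg and Fga), 23.7 kb (Fga and Fgb) and 42.1 kb (Fgg and Fgb) apart. Those of Fgb and Plrg1 are 5.67 kb apart on opposite strands. No loop joined those 2 to each other, and the shortest loop in the window spanned 8.07 kb. 

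**Figure D1:**
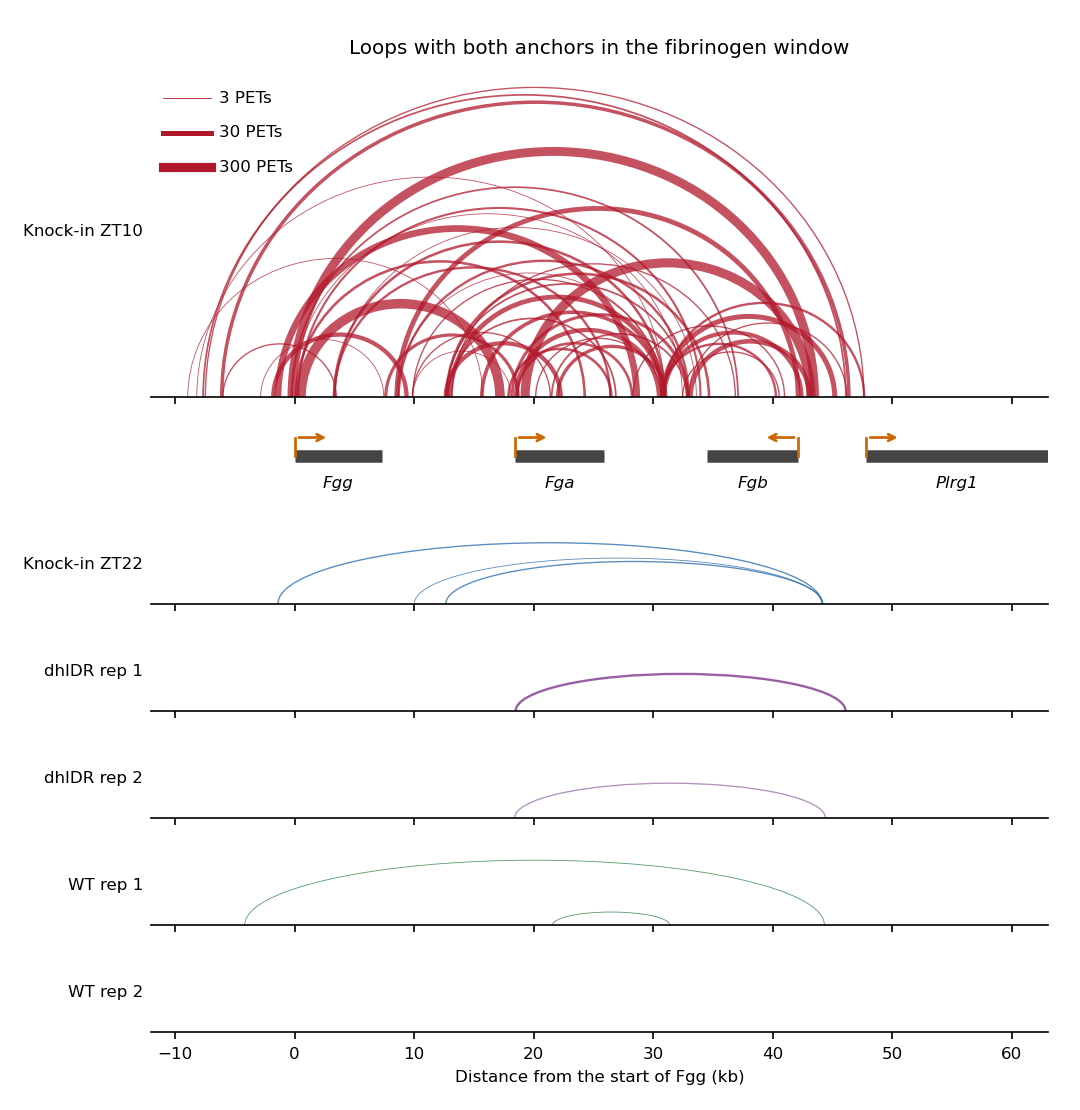
Arcs join the centres of the anchors of each loop with both anchors in the fibrinogen window, for 6 libraries, with distance from the start of Fgg in kb on the horizontal axis and line width growing with the log of the PETs. Genes are bars and arrows mark their starts; the 48 arcs at ZT10 include the 3 thick ones of 258 to 374 PETs, and the other libraries show 0 to 3 arcs each.

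By PETs, Plrg1 could seldom be told from Fgb. Both PET-rich loops to Fgb used anchors of 9.69 and 10.8 kb that cover its start and that of Plrg1. Counting anchors that overlap the 250 bases before to 50 after each start, 8 loops with 750 PETs covered the Fgg promoter and 8 with 734 the Fga promoter. The Fgb promoter had 5 with 626 PETs and the Plrg1 promoter 5 with 581. Loops of 27, 24 and 18 PETs covered the Fgb promoter without that of Plrg1. Of the Plrg1 loops, 3 covered its promoter without that of Fgb. They joined it to chr3:83000849-83002404, upstream of Fgg (13 PETs), to chr3:83038139-83039032, between Fga and Fgb (7 PETs), and to chr3:82999847-83000664 (4 PETs). Among the 48 loops with both anchors inside the window (1409 PETs), 3 joined promoters at both anchors (66.1% of PETs). A further 18 covered a promoter at 1 anchor (19.3%), and 27 covered none (14.6%).

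The anchors of these 48 loops filled a block of 58.2 kb, from 82998159 to 83056321. Its upper limit lies just inside Plrg1, so the rest of that gene carried no ZT10 loop. No ZT10 loop had an anchor wholly within the 50 kb below or above the window. At ZT22 those flanks held 0 and 2 loops. In dhIDR they held 0 and 2 loops below and 1 and 3 above, and in WT 0 and 4 below and 2 and 0 above, with at most 13 PETs in any flank and library. The nearest neighbours had no PET near their ends at ZT10. Rbm46, which encodes an RNA-binding protein, had 0 PETs at ZT10 and 8 at ZT22. Lrat, the retinol-esterifying enzyme and a marker of stellate cells, 104 kb below Fgg, had 0 at ZT10 and 13 at ZT22. Npy2r, a neuropeptide Y receptor gene, had 0 and 3. On the other side Dchs2, a protocadherin gene 54.7 kb beyond Plrg1, and Gm10710, which overlaps it, each had 0 at ZT10 and 5 at ZT22, and Sfrp2, which encodes a secreted Wnt modulator, had 0 in both.

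Overlapping anchors merged into 7 nodes at ZT10, of which 12 of the 21 possible pairs were joined. The nodes lie close together, and joining anchors within 1 kb left 1 node, so these counts depend on the merging rule. The node over Fgg (83002786 to 83013723) had 17 loops and 791 PETs, 485 of them to the node of Fga and 258 to that of Fgb and Plrg1. The node over Fga ran from 83018753 to 83043712, through the gap to the 3′ end of Fgb. It had 41 loops and 1076 PETs, including 13 loops with 146 PETs between places within it. The node over Fgb and Plrg1 (83045513 to 83056321) had 15 loops and 707 PETs, 397 of them to the Fga node. A node between Fgg and Fga (83014137 to 83018410) had 9 loops and 82 PETs and reached all 3. The other nodes were small. Both nodes below Fgg, 82998159 to 83000721 with 15 PETs and 83000849 to 83002404 with 17, reached across the cluster to the Fgb and Plrg1 node. The last, 83043910 to 83045287 in the body of Fgb, had 9 PETs.

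One place between the genes stood out by narrow anchors, in a profile of PET ends per kb from which it was picked. In that profile narrow anchors give more PET ends per kb than the wide anchors of the promoter loops do for equal PETs. The kb with most PET ends in the window at ZT10 (112, with each end spread evenly over its anchor) ran from 83038001 to 83039000, in the gap where Fga and Fgb point their 3′ ends at each other. It was used by 13 anchors that lie wholly in that gap, 893 to 2561 bp wide, with 157 PETs in all and at most 30 in a loop. They cover 83036927 to 83039488, which begins 3.30 kb past Fga and ends 2.76 kb from Fgb. From there loops ran to both sides. One of 30 PETs joined it to chr3:83051396-83054426 between the Fgb and Plrg1 starts. Another of 26 joined it to chr3:83019659-83021823 upstream of Fga, and one of 21 to chr3:83025253-83027240 over the Fga promoter. A wide loop of 76 PETs joined the Fgg promoter to chr3:83033051-83039637, which covers this place and the 3′ end of Fga. The gap between Fga and Fgb held 26 loops with 245 PETs that had an anchor wholly in it, against 14 with 126 between Fgg and Fga.

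**Figure D2:**
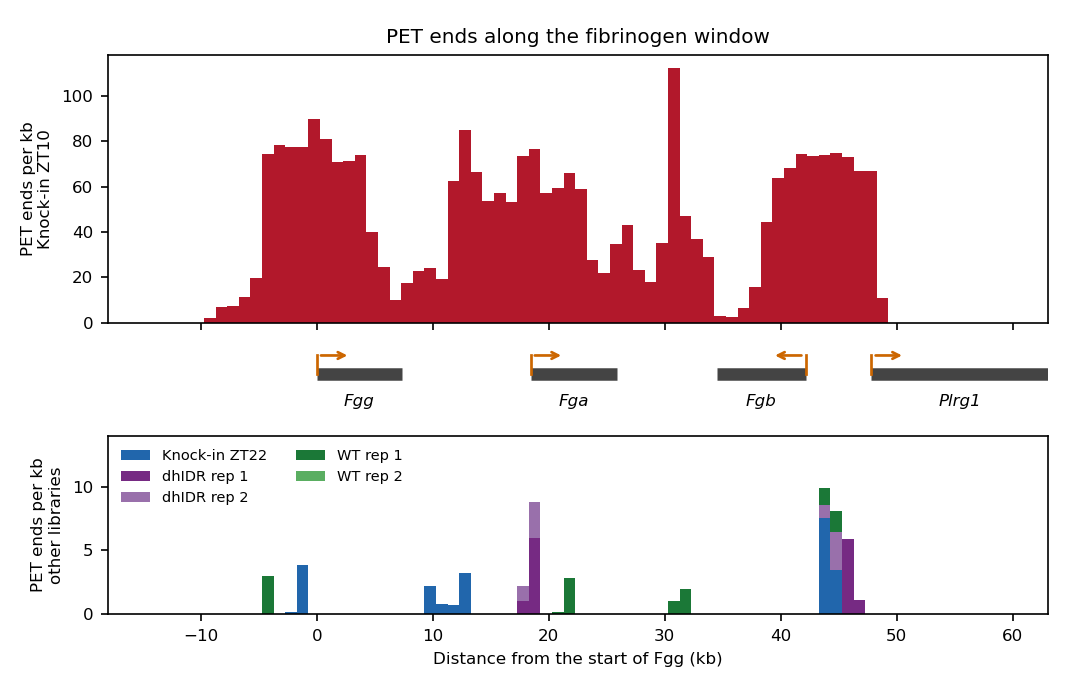
PET ends per kb along the window, by distance from the start of Fgg, at ZT10 in the upper panel and stacked for the other 5 libraries in the lower one, on a scale that tops out at 14. The ZT10 profile has broad blocks over the 3 promoter regions and its highest kb (112 PET ends) between Fga and Fgb, and the tallest stack of the other libraries lies between Fgb and Plrg1.

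PETs per loop went with anchor width, in this window and in the whole library. ZT10 loops whose anchors averaged 1 to 1.5 kb had a median of 3 PETs, those of 2 to 3 kb 12, and the 35 loops of 8 kb and over 135. Within that widest class the 3 promoter loops stood at ranks 1, 3 and 5. Per square kb of anchor the 374-PET loop had 2.78 PETs, the 299-PET loop 1.68 and the 258-PET loop 2.82, against a median of 3.22 over all ZT10 loops, which places the first at rank 35745. On that scale, added after the wide anchors were seen, the highest loop of the window was the one of 7 PETs between chr3:83038139-83039032 and the Plrg1 promoter, with 6.71 PETs per square kb. At equal width the loops of the window lay above the median of the library in some classes and not in others. Its 6 loops of 0.7 to 1 kb had a median of 3 PETs against 3 in the library, and its 19 of 1 to 1.5 kb 4 against 3. Its 10 loops of 1.5 to 2 kb had a median of 9 PETs against 6, and its 7 loops of 2 to 3 kb 20 against 12. The single loop of 3 to 5 kb had 20 against 27, and the 2 of 5 to 8 kb 51.5 against 63.

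**Figure D3:**
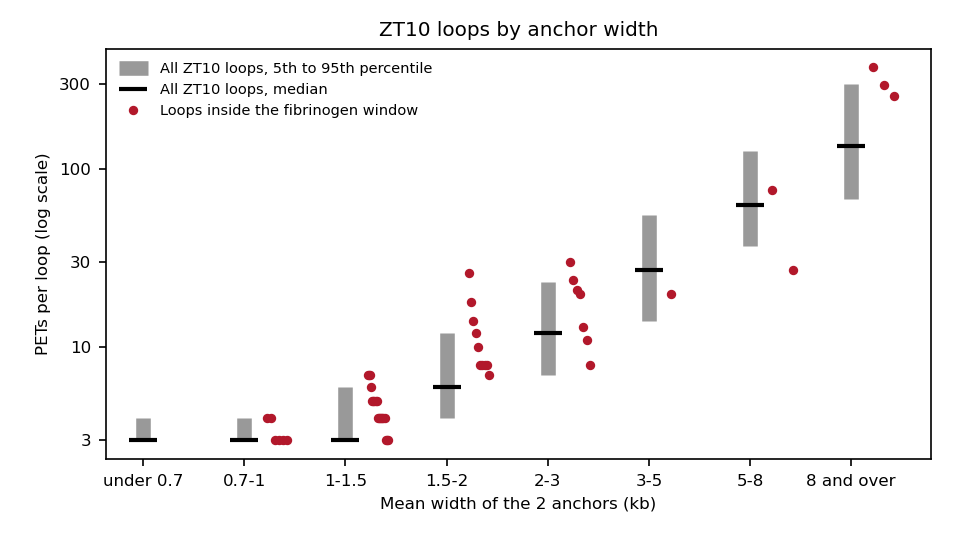
PETs per loop on a log axis at ZT10 against the mean width of both anchors in kb, with grey bars from the 5th to the 95th percentile of all loops, black dashes at the median, and points for the 48 loops inside the fibrinogen window, spread sideways so that they do not hide each other. Medians rise with width, and the 3 window loops of 8 kb and over (258 to 374 PETs) lie above that class's median of 135.

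Per gene, a loop counted if one of its anchors came within 5 kb of the gene's start or end, so neighbours share loops and their counts are not independent. Fgg (83007724 to 83015056) had 1216 PETs at ZT10 (exact Poisson 95% interval 1149 to 1286), the highest of all genes, against 11 (5.49 to 19.7) at ZT22. Fga (83026153 to 83033627) had 1022 (960 to 1087), the second, and was not listed at ZT22. Fgb (83042246 to 83049863) had 930 (871 to 992), the third, against 11 (5.49 to 19.7). Plrg1 (83055538 to 83072291) ranked 7 with 692 (641 to 746), against 14 (7.65 to 23.5). Between Fgb and Plrg1 stood only genes of the Ugt1a cluster, led by Ugt1a1 with 755. For all 4 members the ZT10 library was far above the ZT22 library, and no other library came near it. As shares of listed PETs the log2 ratio, ZT10 over ZT22, was 5.52 for Fgg (exact Clopper-Pearson interval 4.67 to 6.52), 5.13 for Fgb (4.28 to 6.14) and 4.36 for Plrg1 (3.6 to 5.23). There is 1 library per time, so no test was made. Intervals cover counting error only and take PETs as independent molecules, and a loop that ZT22 does not list can still have up to 2 PETs, which they do not cover.

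The share of genes past the same rule shows how common such ratios were. Of the 2085 genes that reached 30 PETs when ZT10 and ZT22 were summed, 75.6% had a share over 4-fold higher at ZT10 (with an unlisted gene counted as 3 PETs) and 0.192% over 4-fold lower. All 4 members were over 4-fold higher, which the choice of members fixes. The median log2 ratio of those genes was 2.60. Over the genes with PETs in both libraries it was 2.36, and with that shift taken off as the scale, 145 genes were over 4-fold higher and 87 lower, against 1577 and 4. On that scale the log2 ratios were 3.16 for Fgg, 2.77 for Fgb and 2.0 for Plrg1, just short of 4-fold. The ZT10 library also had shorter loops, with a median span of 40.1 kb against 524 kb at ZT22 and 647 to 1071 kb in the AAV libraries. The part of this in the members' ratios was not tested. With loops limited to anchors of at least 700 bp, shares were taken of the PETs of those loops, not of all listed PETs. On that total 5.12% of 1758 genes were over 4-fold higher. The log2 ratios were 3.38 for Fgg, 3.00 for Fgb and 2.59 for Plrg1. Fgg had 1194 PETs against 7 there, beside 1216 against 11 with all loops, so its ratio fell with the total and not with its own PETs. Over gene bodies 41.9% of genes were higher and 16.3% lower, and within 25 kb of the ends 38.8% and 4.47%.

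**Figure D4:**
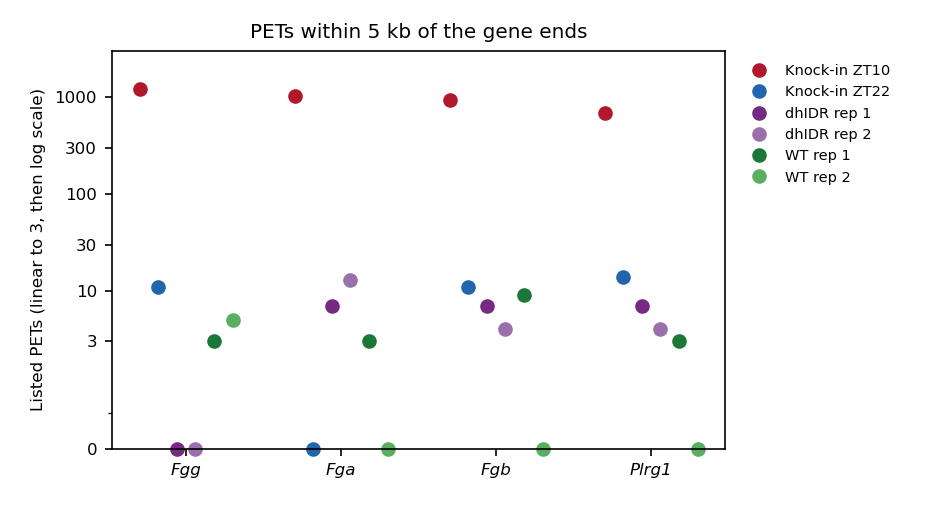
Listed PETs within 5 kb of the ends of each of the 4 genes in each of 6 libraries, on an axis that is linear up to 3 and logarithmic from there. The ZT10 points lie between 692 and 1216, and all others between 0 and 14.

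Only 1 other locus held as many PETs over the same length. Of 137044 windows of 80 kb, taken in steps of 10 kb and holding any ZT10 PET, 12 that do not overlap the cluster exceeded its 1434 PETs. All 12 lay on chromosome 8 between 10830001 and 11020000, beside or over the insulin receptor substrate gene Irs2, and the highest had 2119. The median window had 6. In the window as a whole the 1434 PETs at ZT10 made 447 per 100000 listed (Clopper-Pearson 425 to 471), against 14 PETs or 10.6 (5.77 to 17.7) at ZT22.

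At ZT22 the 3 loops inside the window all ended between Fgb and Plrg1. They joined chr3:83051570-83052122 to a place upstream of Fgg (83005970 to 83006685, 4 PETs), chr3:83051475-83052328 to one upstream of Fga (83019777 to 83020982, 4 PETs), and chr3:83051264-83052396 to one between Fgg and Fga (83017214 to 83018276, 3 PETs). The same spot returned in the AAV libraries. Anchors of dhIDR replicate 2 (83051863 to 83052396) and WT replicate 1 (83051514 to 83052584) overlapped it. All 5 anchors share 259 bp from 83051863 to 83052122, which lie 2.0 kb before the start of Fgb and 3.42 kb before that of Plrg1. This spot was picked after the loops were seen, and it took part in 5 of the 7 loops that the libraries other than ZT10 list inside the window. At ZT10, 6 loops with 651 PETs covered it.

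The construct libraries listed few loops in the window. Loops with an anchor there numbered 1 and 3 in dhIDR, with 7 and 13 PETs, and 3 and 1 in WT, with 9 and 5. Per 100000 listed PETs this was 3.92 and 8.09 in dhIDR and 8.64 and 2.45 in WT, so the groups overlapped. The means were 6.01 ± 2.95 in dhIDR and 5.55 ± 4.38 in WT (SD, n = 2 each), a difference of 0.462 (exact two-sided permutation test, p = 1.0, where 2 against 2 libraries cannot give less than 0.33). With loops of at least 4 PETs the groups no longer overlapped, with means of 6.01 in dhIDR and 1.23 in WT, a difference of 4.78 (exact permutation test, p = 0.33, the smallest possible). With all listed loops, the sign of the difference of 0.462 turned when dhIDR replicate 2 (-1.62) or WT replicate 2 (-2.63) was left out. All 4 AAV libraries were taken at ZT10 like the knock-in library with 447, and listed 2.45 to 8.64. All 4 differ from it in genotype and virus, which cannot be told apart. The dhIDR libraries differ in the tagged form as well, while the WT libraries carry the full-length form.

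Both dhIDR libraries listed 1 loop inside the window, and in both it joined the Fga promoter to the gap between Fgb and Plrg1. In replicate 1 it ran from chr3:83025906-83026539 to chr3:83053542-83054085 with 7 PETs, and in replicate 2 from chr3:83025827-83026425 to chr3:83051863-83052396 with 4. The Fga ends of both overlap each other and the promoter printed above, while the other ends do not overlap. WT replicate 1 listed 2 loops inside the window with 3 PETs each. One joined chr3:83003253-83003839, upstream of Fgg, to the shared spot, and the other joined chr3:83028956-83029643 in Fga to chr3:83038741-83039488, the place between Fga and Fgb described for ZT10. WT replicate 2 listed none. All 7 inside loops of ZT22, dhIDR and WT overlapped a ZT10 loop at both anchors. Among all loops spanning at most 100 kb such a match was found for 3.54% at ZT22, 2.43% and 1.39% in dhIDR, and 1.81% and 1.29% in WT. The wide ZT10 anchors of this window make a match easier to meet here, and this was not adjusted for.

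By gene, Fga had 7 and 13 PETs in dhIDR and 3 and 0 in WT. As shares of listed PETs both dhIDR libraries were above both WT libraries, as for 12.8% of the 18238 genes with any PET in these 4 libraries. Of the 13 PETs in dhIDR replicate 2, 5 and 4 came from loops that leave the window. With inside loops alone that library had 4 PETs, 2.49 per 100000 listed, below the 2.88 of WT replicate 1, so the groups overlapped. Fgg went the other way, with 0 in both dhIDR libraries and 3 and 5 in WT, as for 10.2% of those genes. The 5 PETs of Fgg in WT replicate 2 are a loop that leaves the window, to Manba, 52.5 Mb away. Fgb had 7 and 4 in dhIDR and 9 and 0 in WT, and the groups overlapped. Plrg1 had 7 and 4 in dhIDR and 3 and 0 in WT, and as shares its groups overlapped too. Each of these counts comes from at most 3 loops, and none of the 4 genes passed the filter of edgeR on low counts. edgeR's quasi-likelihood test called 0.0% of the 333 genes that did (22 had an unadjusted p under 0.05). DESeq2 made 3 calls among the same 333 genes, which hold no member, so it did not test the members. Without the filter, edgeR gave a log2 value, dhIDR over WT, of 2.43 for Fga (SE 1.90, adjusted p = 0.948 over 18238 genes), 0.03 for Fgb (SE 1.93, adjusted p = 0.998) and 1.56 for Plrg1 (SE 2.14, adjusted p = 0.948). Each SE was worked back from the log2 value and the F statistic of the test, and is approximate. For Fgg, at 0 in both dhIDR libraries, edgeR's adjusted p was also 0.948 and the fitted value sets no bound.

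Partners outside the window were few and weak. At ZT10 there were 7 such loops with 25 of the window's 1434 PETs. The strongest, of 6 PETs, joined the Fgg promoter (83007380 to 83008190) to chr3:81982611-81983381, 1.02 Mb below. That anchor lies at the lower-coordinate end of Asic5, which encodes a bile acid-sensitive ion channel. A loop of 3 PETs joined the same promoter to chr3:82028598-82029211, within 5 kb of Gucy1b1, the β subunit gene of soluble guanylate cyclase. Another of 3 joined the region upstream of Fgb (83050313 to 83050933) to chr3:81990659-81991269 inside Asic5. In dhIDR replicate 2 a loop of 5 PETs joined Fga (83031916 to 83032477) to chr3:82040759-82041360 inside Gucy1b1. So 4 of the 12 outside partners in all libraries fell in 58.7 kb about 1 Mb away, a stretch grouped after its loops were seen. That stretch was itself looped at ZT10, with 33 loops and 143 PETs of any partner, against 1 loop and 4 PETs at ZT22. Asic5 had 95 PETs at ZT10 and 4 at ZT22, and Gucy1b1 had 19 and 0.

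The other 4 outside loops at ZT10 had 3 or 4 PETs. They reached chr3:83233597-83234192 in Dchs2 from upstream of Fga, chr3:84323968-84324487, 1.32 Mb above, from the Fgg promoter, chr3:79241621-79242232 in the Rap activator gene Rapgef2 from the Fgg body, and chr3:73032884-73033503, 9.99 Mb below, from the Fga promoter. The remaining partners were single loops. At ZT22 one of 3 PETs joined the body of Plrg1 to Tmem144, 3.22 Mb away. dhIDR replicate 2 joined a place past the end of Fga to chr3:82953650-82954255 (4 PETs), WT replicate 1 joined the Fgb promoter to chr3:83829917-83830567 (3 PETs), and WT replicate 2 joined Fgg to Manba, the β-mannosidase gene, 52.5 Mb away (5 PETs).

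The other coagulation genes had PETs at ZT10 too, at a lower level. Of 24 genes for clotting factors, their inhibitors and fibrinolysis, 11 had at least 30 PETs over both knock-in libraries. Among these 9 were over 4-fold higher at ZT10 and none lower, beside 75.6% and 0.192% of all such genes, and their median log2 ratio was 3.31 against 2.60 over all. The list's median was 24.5 PETs at ZT10 and 3 at ZT22, against 976 and 11 for the 4 members. The most PETs were at Klkb1, the prekallikrein gene (199 at ZT10 against 6 at ZT22), Fgl1, a fibrinogen-like hepatocyte protein (196 against 7), and F11, factor XI (169 against 0), which neighbours Klkb1. Factor X (F10, 107 against 3), factor VII (F7, 101 against 3) and protein Z (Proz, 85 against 6) lie next to each other and share loops. Antithrombin (Serpinc1, 75 against 6) and antiplasmin (Serpinf2, 72 against 0) followed. Prothrombin, F2, had 14 against 5 and factor XIIIb, F13b, 0 against 3. The von Willebrand factor gene Vwf, which endothelium expresses, had 0 in both.

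Genes of hepatocyte transcription factors and interleukin 6 signalling, 11 in all, had 6 with at least 30 PETs, each over 4-fold higher at ZT10, beside 75.6% of all genes with that many. The list led with Foxa2 (266 against 0), a pioneer factor, Cebpa (225 against 3), Il6ra, the interleukin 6 receptor (82 against 0), and Hnf4a (76 against 0). Cebpb, which acts in the acute phase, had 43 against 3, and Foxa1 42 against 0. Stat3, which carries the interleukin 6 signal, had 14 against 10 and the glucocorticoid receptor gene Nr3c1 8 against 6, both with fewer than 30 PETs in all. In dhIDR and WT libraries no gene of these lists had more than 17 PETs.

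**Figure D5:**
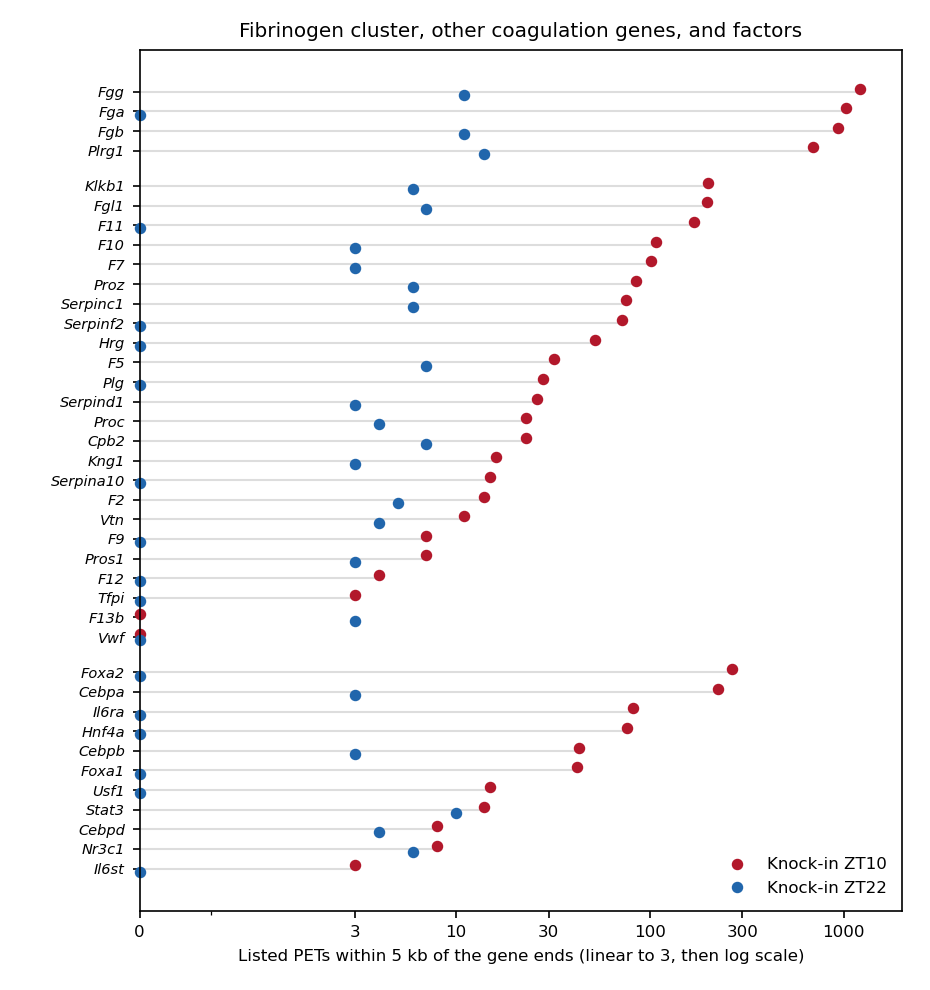
Listed PETs within 5 kb of the gene ends at ZT10 and at ZT22 for the 4 genes of the fibrinogen cluster, 24 other coagulation genes and 11 factor genes, each block ordered by ZT10, on an axis linear up to 3 and logarithmic from there. The cluster's 692 to 1216 PETs at ZT10 exceed the highest of the other genes shown, 266 at Foxa2.

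The genes most like Fgg over the 6 libraries, by Euclidean distance of log2(PETs per 100000 listed + 1) and outside 82 to 84 Mb of chromosome 3, were Mtarc2 (2.36), Rnf125 (2.54), Dhrs3 (2.72), Pon1 (2.74) and Slc34a2 (2.80). Mtarc2 had 349 PETs at ZT10, 4 at ZT22, 0 in both dhIDR libraries and 6 and 3 in WT. Rnf125 had 526 at ZT10, 5 at ZT22, 0 and 3 in dhIDR, and 9 and 6 in WT. The neighbours of Fgg in the cluster were farther from it, with Plrg1 at 3.53, Fgb at 3.69 and Fga at 5.39. Most of the distance of Fga came from ZT22 (0 PETs against 11 for Fgg) and dhIDR (7 and 13 against 0). Those counts rest on at most 3 loops each. At ZT10 alone the neighbours, with 692 to 1022 PETs, were nearer to the 1216 of Fgg than Mtarc2 and Rnf125 were.

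Markers of liver cell types set these levels in context. All 8 hepatocyte genes, such as Alb and Apoa1, had PETs at ZT10, from 34 to 259 and 699 in sum, against 28 in sum at ZT22. The sums at ZT10 and ZT22 were 3 and 10 for 6 Kupffer genes, 60 and 9 for 5 endothelial, 17 and 34 for 5 stellate, 32 and 15 for 4 cholangiocyte and 15 and 18 for 5 lymphoid genes. In the AAV libraries hepatocyte genes did not stand out. Their sums were 34 and 6 in dhIDR and 29 and 18 in WT, and those of the Kupffer genes 31 and 15 in dhIDR and 9 and 56 in WT. The endothelial sums were 28 and 12 in dhIDR and 9 and 12 in WT, and the stellate sums 31 and 17 in dhIDR and 3 and 24 in WT. Cholangiocyte genes had 0 and 26 in dhIDR and 6 and 9 in WT, and lymphoid genes 25 and 19 in dhIDR and 0 and 16 in WT. By the TBG promoter, liver cells other than hepatocytes would carry no tagged protein in the AAV libraries. How far PETs that do not come from tagged protein enter the dhIDR and WT counts was not tested. At 0 in the ZT10 library were 5 of the Kupffer, 2 of the endothelial, 1 of the stellate (Lrat), 3 of the cholangiocyte and 3 of the lymphoid genes. For that knock-in library of bulk tissue, fewer cells of a type and fewer contacts per cell cannot be told apart.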

How the data were processed

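In-situ ChIA-PET libraries were made with formaldehyde and EGS fixation, AluI digestion, religation, anti-HA pulldown and Tn5 tagmentation, per the labels' protocols. The deposited files list, per library, same-chromosome pairs of anchors and raw counts of PETs, not normalized and not pooled. Coordinates are in mm10, per the submitters' processing notes. Aligner, duplicate filter and caller are not given in the sources used here. Coordinates of anchors are printed as deposited. Of 8 samples, 2 with anti-CTCF were left out. Mitochondrial clusters were left out.

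The members and lists were chosen with earlier results of these data known. PETs were assigned to RefSeq genes (GRCm38.p6) within 5 kb of either end, anchors were merged at 1 bp of overlap, and Tf was matched as Trf. dhIDR and WT were compared with edgeR 4.0.16 (quasi-likelihood, TMM, library size as total listed PETs, filterByExpr, Benjamini-Hochberg at 0.05) over all genes, and with DESeq2 1.42.0 as an alternative, in R 4.3.3. The window was compared by an exact permutation test in Python 3.11.15. The edgeR step was run on simulated counts set well above those of these libraries. That run says nothing of counts as low as the members'. Named genes were the members, genes at outside partners, 3 neighbours on each side, the 8 coagulation genes and 4 factors with most ZT10 PETs, and the 5 profiles nearest Fgg. One gene of the factor list is not reported here. F2, F13b, Vwf, Foxa1, Cebpb, Stat3 and Nr3c1 were added after their values were seen.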

Additional observations from a re-analysis of the deposited data

How the results depend on the processing

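The window's difference between dhIDR and WT, 0.462 PETs per 100000, was 0.217 with the window widened by 50 kb, 1.69 with loops of at most 2 Mb and 0.51 with mitochondrial clusters in the total (exact permutation test, p = 1.0 in each). With at least 4 PETs per loop it was 4.78 (exact permutation test, p = 0.33). With all listed loops and each library left out in turn, the difference ran from -2.63 to 3.56 PETs per 100000. Without dhIDR replicate 2 it was -1.62. No AAV loop in the window had both anchors at least 700 bp wide, so that setting gave no value. edgeR called 0 genes at 2 kb and 25 kb, without the filter, and with a replicate block (0 of 333, smallest adjusted p = 0.0717 in edgeR). It called 1 over gene bodies, and 0 to 3 with a library left out, the 3 without WT replicate 2, and DESeq2 called 3. Members were tested only within 25 kb (3 of them), without the filter (4) and with a library left out (1 or 2), and none was called; elsewhere none passed the filter. Deviations of same-numbered libraries correlated at 0.0574 over 333 genes, so the numbers were not taken to pair them.

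Genes over 4-fold higher at ZT10 numbered 1577 of 2085, and 145 with the median gene as scale. They numbered 66 of 1276 with at least 5 PETs per loop and 90 of 1758 with both anchors at least 700 bp wide. In the settings that dropped loops, shares were taken of the PETs of the loops kept. They numbered 1215 of 1394 at 2 kb (1 lower), 1950 of 5029 at 25 kb (225 lower) and 1560 of 3721 over gene bodies (606 lower). All 4 members were over 4-fold higher in each setting, except Plrg1 with the median gene as scale. The 7 nodes merged into 1 when anchors within 1 kb were joined. The strongest loop moved to rank 35745 by PETs per square kb. The floor of 3 PETs per listed loop limits every count outside the ZT10 library.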
